A study of Caenorhabditis elegans with 2 samples.

Results

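The regions described here were reproducible peaks of the transcription factor LIM-7 that the authors' final filter took out. They were chosen by the values themselves: a peak was a member when its global irreproducible discovery rate (IDR, the expected share of peaks this strong or stronger that would fail to recur) had a −log10 value of 2 or more in a ranked list, while the thresholded list made from the same samples did not hold it. In the 4 pairs of lists, 582 of 5838 peaks past that score were members, and merging those that shared at least 1 bp gave 184 regions. They covered 45047 bp in all and were 69 to 466 bp wide, with a median of 264 bp. The score chose the members and the signal value comes from the same lists, so both are given as descriptions with no test.

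LIM-7 binding was measured by chromatin immunoprecipitation and sequencing in whole Caenorhabditis elegans L4 larvae, grown for 48.5 hours from arrested L1 larvae. All animals were of strain OP779, which carries the integrated transgene wgIs779 with lim-7 fused to TY1, EGFP and 3xFLAG beside unc-119(+), in the unc-119 mutant background tm4063. The labels' description gives an antibody against GFP for the precipitation, while their antibody field names lim-7. If GFP was the target, the tagged protein of 1 strain stands for LIM-7. Whole animals do not separate the cells that make it. The 2 samples were biological replicates of 1 group, and no other genotype, stage or control was analysed here. Read depth is unknown from peak lists. The authors' signal value has no stated scale and is used only within a list.

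LIM-7 is a LIM-homeodomain protein of the Islet class, and homeodomains bind short sites around the letters TAAT. Tandem repeats are stretches in which a short unit of DNA follows itself many times, head to tail. They are common in nematode genomes, often lie between genes, and are usually marked by repeat annotation. A short sequencing read from one copy can match other copies equally well, and a reference genome can hold fewer copies of an array than the animals do. Peak lists are therefore often filtered against regions of high signal. Here the thresholded lists derive, per the file list deposited with each sample, from 1 further file that the ranked lists do not derive from. What that file holds was not described, and its part in the removal was not tested.

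The removed regions had a feature of sequence in common that the rule did not use: most lay inside tandem repeats. The sequences below are the plus strand around the summit of a region, 5′ to 3′, from the RefSeq WBcel235 assembly, whose sequence is that of the authors' ce11 build. Capitals mark 1 copy of the repeat unit, taken as the most common distance between recurring 12-base words. The 2 regions with the highest signal in different arrays of one sequence group come first, then the largest group, then examples of other groups and of isolated arrays. For the pair with the longest unit, the capitals mark 172 bases.
Strongest region, chrX:15810951-15811212, 26 bp unit, bases chrX:15811059-15811158: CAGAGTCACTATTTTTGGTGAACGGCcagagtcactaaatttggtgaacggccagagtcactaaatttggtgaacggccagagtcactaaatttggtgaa
Same sequence group, chrV:5284056-5284304, 52 bp unit, bases chrV:5284068-5284267: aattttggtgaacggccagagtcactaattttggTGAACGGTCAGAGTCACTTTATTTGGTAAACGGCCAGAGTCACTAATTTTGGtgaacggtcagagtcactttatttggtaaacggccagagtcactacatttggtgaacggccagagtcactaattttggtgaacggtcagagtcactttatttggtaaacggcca
Largest group, chrX:5056832-5057055, 27 bp unit, bases chrX:5056880-5056979: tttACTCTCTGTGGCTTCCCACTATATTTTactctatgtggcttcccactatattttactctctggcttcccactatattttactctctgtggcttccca
A further 26 bp group, chrX:11785743-11785887, bases chrX:11785772-11785871: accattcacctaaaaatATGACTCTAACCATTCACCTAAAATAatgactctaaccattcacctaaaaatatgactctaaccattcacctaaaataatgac
Group with a 20 bp unit, chrIV:8579549-8579784, bases chrIV:8579600-8579699: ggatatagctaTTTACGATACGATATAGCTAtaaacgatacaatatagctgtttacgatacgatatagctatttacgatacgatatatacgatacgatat
Group with a 45 bp unit, chrIV:3366893-3367136, bases chrIV:3366978-3367077: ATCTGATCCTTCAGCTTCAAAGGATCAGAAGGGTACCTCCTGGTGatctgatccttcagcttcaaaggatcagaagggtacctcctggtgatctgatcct
Long unit, chrX:293311-293506, bases chrX:293332-293531: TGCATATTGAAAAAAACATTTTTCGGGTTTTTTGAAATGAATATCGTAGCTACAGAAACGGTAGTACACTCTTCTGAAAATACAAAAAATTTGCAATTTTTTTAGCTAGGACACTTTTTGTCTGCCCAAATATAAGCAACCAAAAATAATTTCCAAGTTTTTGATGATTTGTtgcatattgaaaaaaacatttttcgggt
Long unit, chrV:266314-266513, bases chrV:266300-266499: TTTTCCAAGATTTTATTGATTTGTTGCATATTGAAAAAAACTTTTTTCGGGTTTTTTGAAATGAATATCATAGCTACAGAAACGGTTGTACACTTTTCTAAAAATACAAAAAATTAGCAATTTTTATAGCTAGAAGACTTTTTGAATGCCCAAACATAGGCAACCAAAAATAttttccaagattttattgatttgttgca
Unit of 96 bp, chrIV:12638237-12638435, bases chrIV:12638253-12638452: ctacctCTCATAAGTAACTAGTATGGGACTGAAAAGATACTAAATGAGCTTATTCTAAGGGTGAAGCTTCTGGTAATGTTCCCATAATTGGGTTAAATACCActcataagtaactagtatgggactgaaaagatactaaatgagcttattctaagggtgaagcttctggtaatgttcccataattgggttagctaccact
Unit of 9 bp, chrIV:11070916-11071200, bases chrIV:11071016-11071115: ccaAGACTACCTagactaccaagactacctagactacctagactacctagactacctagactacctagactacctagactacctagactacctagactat
Coding repeat of ttn-1, chrV:6172977-6173240, 48 bp unit, bases chrV:6173059-6173158: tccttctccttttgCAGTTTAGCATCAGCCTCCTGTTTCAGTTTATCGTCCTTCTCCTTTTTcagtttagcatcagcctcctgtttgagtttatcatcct

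Several of these units occurred well beyond the regions in which they were found. The exact 26 bp unit of the strongest region, counted on both strands, had 101 copies in the genome, 83 of them on the X chromosome, with 7 copies inside removed regions and 1 inside a kept peak of the main list. The 27 bp unit of the largest group had 359 copies, of which 64 lay in removed regions and 2 in kept peaks. The unit of the further 26 bp group had 140 copies, with 24 in removed regions and 0 in kept peaks. The 20 bp unit had 543 copies, with 25 in removed regions and 0 in kept peaks. The count of the 9 bp unit cannot be read in this way, since so short a word also recurs by chance and no chance count was made. Of its 552 copies, 44 lay in removed regions and 24 in kept peaks. The longer units shown had few exact copies in the genome. There was 1 of each 172 bp unit, 2 of the 96 bp unit and 4 of the 45 bp unit. The 52 bp unit had 6, and the 48 bp unit of ttn-1 had 8.

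Removal took a small share of each list but most of its strongest peaks. In replicate 1, 132 of 1015 peaks past the score were removed (13.0%), and in replicate 2, 132 of 1052 (12.5%). Of the lists made from both replicates, the conservative list lost 158 of 1807 (8.74%) and the main list, the longer of the pair, lost 160 of 1964 (8.15%), which left 883, 920, 1649 and 1804 kept peaks. The median signal value of the removed peaks was 125 in replicate 1, 130 in replicate 2, 205 in the conservative list and 189 in the main list. The kept peaks of the same lists had medians of 84.7, 85.6, 109 and 104.6. The highest kept peak had a signal value of 388, 451, 822 and 822, and 16, 14, 15 and 15 removed peaks lay above it. Among the 20 strongest peaks past the score, 18, 17, 17 and 17 were removed, and among the 100 strongest, 50, 47, 47 and 46. The removed peaks were not all strong: 37, 36, 35 and 34 of them lay in the weaker 50% of their list.

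**Figure D1:**
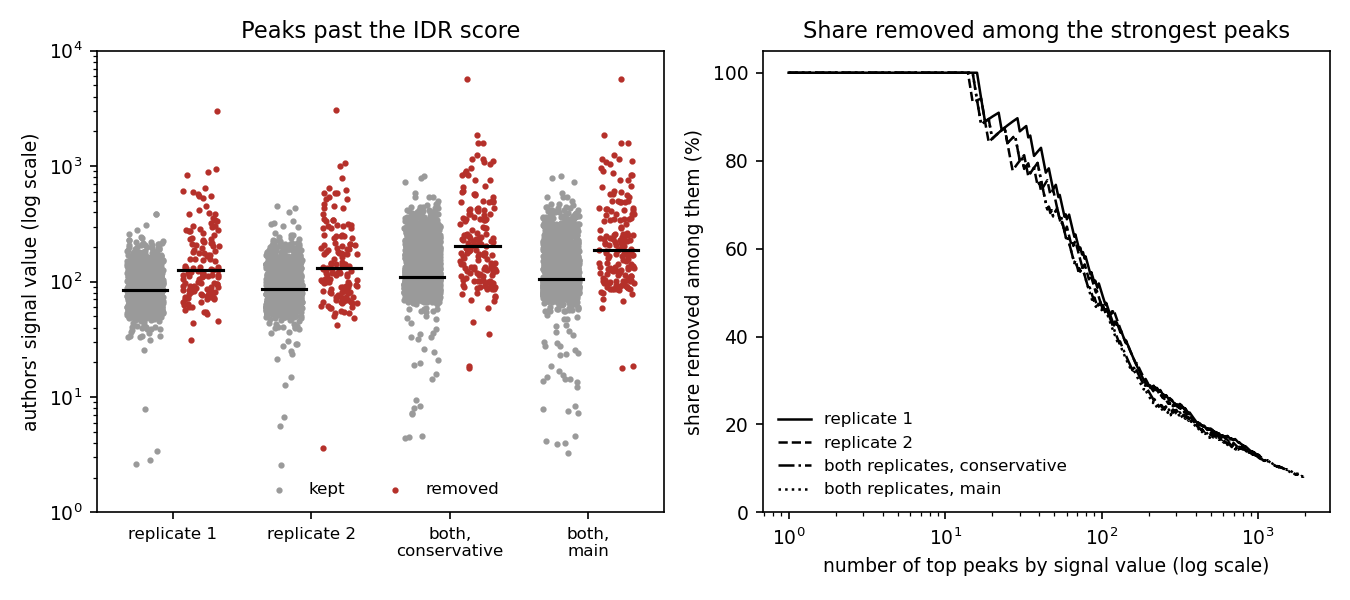
Left, the authors' signal value (log scale) of each peak past the IDR score in the 4 lists, kept in grey and removed in red, with black bars at the medians. Right, the share removed (percent) among the strongest peaks against the number of top peaks counted (log scale). The share is 100% for the strongest 14 or more peaks of every list and falls to between 8.15% and 13.0% over whole lists.

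The score that chose the members was also near its ceiling in many of them. The −log10 IDR is capped at 5, and 49, 37, 36 and 37 removed peaks were at the cap in replicate 1, replicate 2, the conservative list and the main list. These were 37.1%, 28.0%, 22.8% and 23.1% of the removed peaks. Of the kept peaks, 36, 17, 13 and 16 were at the cap (4.08%, 1.85%, 0.788% and 0.887%). The members closest to the threshold of 2 had scores of 2.00, 2.07, 2.01 and 2.06 in the 4 lists. The nearest candidates under it that overlapped a removed region had 1.90, 1.99, 2.00 and 1.97. No removed peak shared a base with a kept peak of any list.

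The 10 regions with the highest signal value in the main ranked list were removed from all 4 lists, and all lay in intergenic repeats. The strongest, chrX:15810951-15811212, had a value of 5711 in that list, with 3022 in replicate 1 and 3095 in replicate 2. A neighbour in the same 4300 bp array, chrX:15808092-15808290, had 1868, with 952 and 1010 in the replicates. The nearest protein-coding gene start to both was that of Y7A5A.7, 6937 bp and 4020 bp away. Both replicates ranked these among their highest peaks, and the replicates of each differed by less than the regions did.

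The region chrV:5284056-5284304, of the same sequence group as the strongest, had a main signal value of 1595, with 895 and 1063 in the replicates. It was the strongest of 7 removed regions in a 2574 bp array, 3205 bp downstream of the start of Y49G5A.1. The pair with 172 bp units followed. The region chrX:293311-293506 had 1591, with 837 and 796, and lay 3802 bp before R57.2. The region chrV:266314-266513 had 1256, with 650 and 642, and lay 1907 bp before lgc-26, a member of the ligand-gated ion channel family. Replicate 2 was the higher in the first of these regions and replicate 1 in the pair.

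Of the other strongest regions, 4 were on chromosome IV and 1 was on the X chromosome. The region chrIV:14779957-14780182 had 1145, with 549 and 625 in the replicates, and lay 1766 bp before Y57G11C.8. The region chrIV:12638237-12638435 had 1144, with 593 and 586. Its 96 bp unit occurred as 2 exact copies, none of its bases was soft-masked in the reference, and it lay 1058 bp from the start of C26H9A.3. The region chrIV:3366893-3367136 had 1116, with 551 and 581, and lay 2169 bp before vha-19, an accessory subunit of the vacuolar proton pump. The region chrX:11785743-11785887 had 1095, with 579 and 582, and lay 1492 bp before Y102F5A.1. The last, chrIV:10945764-10945980, had 1035, with 530 and 516, and lay 3011 bp from the start of Y69E1A.1. In these 5 regions neither replicate was always the higher, and the arrays they lay in ranged from 473 to 2288 bp.

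Most regions were removed in more than 1 list. Of the 184, 107 were removed in all 4 lists, 22 in 3, 29 in 2 and 26 in 1. The 4 lists are not independent, since 2 of them were made from both replicates together. Only the lists of the single replicates can show recurrence. Replicate 1 gave 132 regions and replicate 2 gave 131, and 111 were in both, which is 84.1% of the replicate 1 regions and 84.7% of the replicate 2 regions. For kept peaks, 609 of 883 in replicate 1 (69.0%) overlapped a kept peak of replicate 2, and 612 of 920 (66.5%) did in the other direction. These shares were not matched for signal value, whose median was higher in the removed peaks of both replicates. Of the 21 regions removed in replicate 1 but not in replicate 2, 14 had a candidate peak below the score in replicate 2. Of the 20 removed in replicate 2 but not in replicate 1, 16 had one in replicate 1. The remaining 32 regions came from the lists of both replicates together, and 31 of them had a candidate in each replicate.

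Signal values of the replicates followed each other over the 111 regions removed in both. The ratio of replicate 2 to replicate 1, each the strongest candidate overlapping the region, ran from 0.268 to 1.90 with a median of 1.05. Spearman's rho across these regions was 0.896, and it was 0.856 across the 172 regions with a candidate in both replicates. Regions of 1 array share sequence and are not independent, so the rho is a description. The lowest ratio belonged to chrV:5284405-5284558, with 157 in replicate 1 and 42.1 in replicate 2, and the highest to chrIV:8579549-8579784, with 131 and 249. The former lay beside the region of 1595 and was low in replicate 2, while the latter was low in replicate 1. These 2 were chosen after their values were seen, as was chrX:7077928-7078193, which had 113 and 111 in the single replicates but 17.9 in both lists made from the replicates together.

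**Figure D2:**
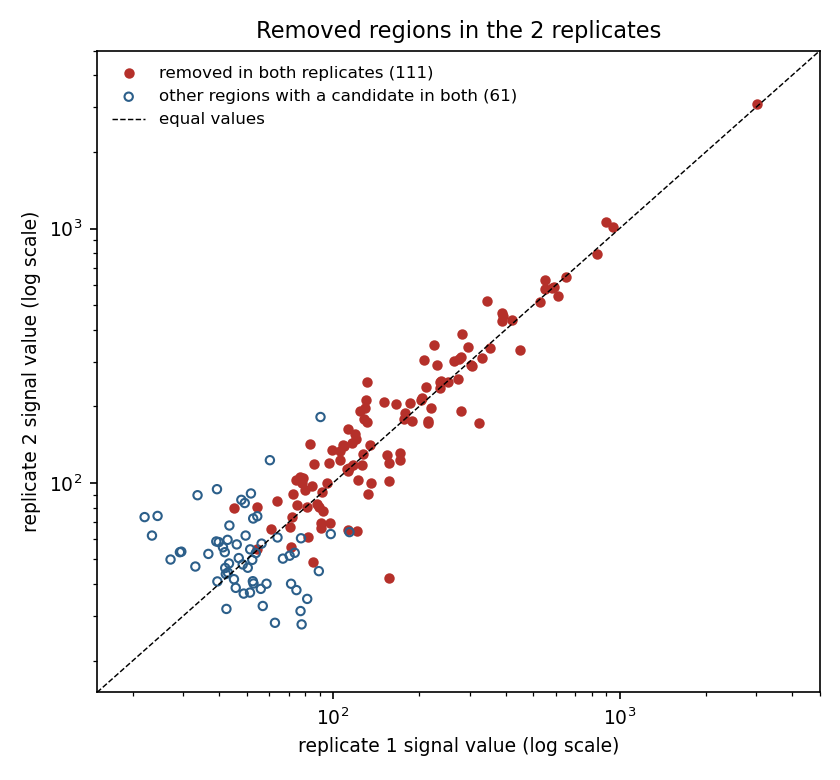
Signal value of each removed region in replicate 1 (x) and replicate 2 (y), both on log scales, for the 172 regions with a candidate peak in both replicates. Filled red points are the 111 regions removed in both replicates, open blue points are the other 61, and the dashed line marks equal values. The points run along the line over the range, to 3022 and 3095 for the strongest region.

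The share of sequence in tandem repeats was high in most removed regions and low in most kept peaks. It was measured as the share of 12-base words that recur within the 1000 bp around a summit. The median was 90.0% in removed regions and 0.202% in kept peaks of the main list. The share was 50% or more in 165 of 184 removed regions (89.7%, exact 95% binomial interval 84.3 to 93.7) and in 58 of 1804 kept peaks (3.22%, 2.45 to 4.14). The intervals cover counting error only, and neighbouring regions of 1 array are not independent. In consecutive 1000 bp windows of the genome, 1650 of 100269 (1.65%) reached that share.

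Most tandem repeat windows of the genome held no removed region. Of the 1650 repeat windows, 793 (48.1%) held a candidate peak of the main ranked list, 135 (8.18%) held a removed region and 58 (3.52%) held a kept peak. Of 1156 candidates in such repeats, 204 (17.6%) passed the score, against 2.11% of the other candidates. Of these 204, 146 were removed (71.6%), and of the 1760 other peaks past the score, 14 were removed (0.795%). The 58 kept peaks in repeats had a median signal value of 113.6 and a maximum of 472. The 146 removed ones had a median of 199.9, from 17.9 to 5711, so the groups overlapped over most of the kept range.

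**Figure D3:**
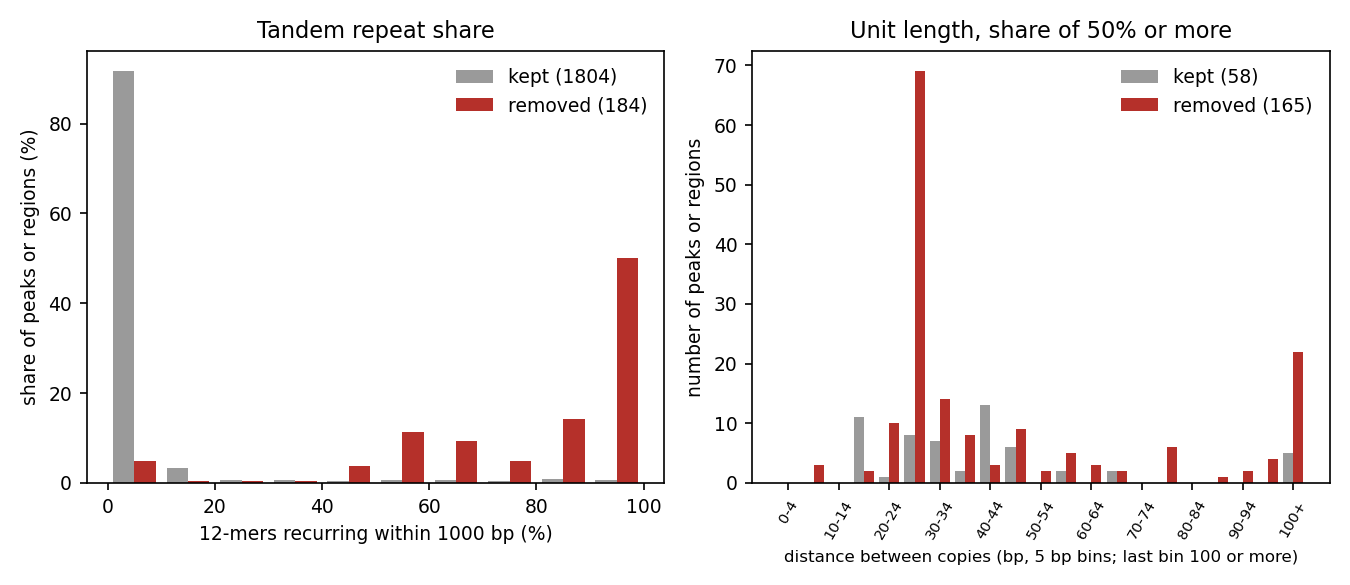
Left, the share (percent) of kept peaks and removed regions in bins of 10 percentage points of the tandem repeat share. Right, the number of peaks or regions with a share of 50% or more by the distance between copies (bp). Most kept peaks sit in the lowest bin and most removed regions in the upper bins, and 66 of 165 removed regions have a unit of 25 to 27 bp.

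Other measures of repetition differed in the same direction. Soft-masked bases of the reference made up 50% or more of 153 removed regions (83.2%) and of 193 kept peaks (10.7%). Bases that start a 50-base word with more than 1 copy in the genome made up a median of 73.1% of a removed region and 0% of a kept peak. The other copies could lie in the same region or array. With words of 100 bases the median of the removed regions was 10.3%. The median 50-base word of a removed region had 4 copies in the genome, against 1 for kept peaks. The share of G and C in the 100 bp around the summit had a median of 41% in removed regions and 51% in kept peaks. Within the removed regions, the main signal value did not rise steadily with these measures: over 158 regions removed from the main list, Spearman's rho was -0.0022 with the tandem share, 0.211 with the share of repeated 50-base words, 0.133 with their copy number and 0.0236 with G and C content. Over 152 of the regions in arrays, rho with the length of the array was -0.067. The points share arrays and one library set, so these are descriptions.

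Most units were short, and many fell on a few lengths. The unit was 9 to 60 bp in 128 of the 165 regions in repeats. Among the 165 regions in repeats, 26 had a unit of 26 bp, 25 had 27 bp, 15 had 25 bp, 14 had 32 bp and 10 had 20 bp, and the range was 9 to 282 bp. Kept peaks in repeats had other units more often: 13 of 58 had 40 bp and 7 had 15 bp, against 3 and 0 of the 165 removed regions. Array lengths were taken per summit, so an array counted once for each summit in it. The median was 3211 bp around removed summits, with quartiles at 1818 and 4995 bp, and 1441.5 bp around kept summits. The 163 removed summits that lay inside an array fell into 74 arrays, and 41 of these held more than 1 removed region.

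Some regions far apart shared sequence. A pair of regions was linked when at least 20% of the 12-base words of the one with fewer words were in both. Words were taken on either strand in the 300 bp around the summit. Linked regions were chained into one sequence group, so members of a group need not share that much with each other. This gave 24 groups of 2 or more regions, which held 158 of the 184. Of the 24, 16 lay on 1 chromosome, each within 1 run of regions joined across gaps of up to 10 kb. The largest, with a 27 bp unit in most members, held 43 regions in 21 separate places on all 6 chromosomes. The main signal value of a region was that of its strongest candidate in the main ranked list, also where this was below the score. In this group the values spanned 77.3 to 869, with a median of 224, and 31 of its regions were removed in all 4 lists. The median of its values was 118 in replicate 1 and 128 in replicate 2.

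The next groups differed in signal value. The group with a 32 bp unit held 19 regions with a median signal of 155 and a maximum of 912. The 26 bp group of the strongest region held 15 regions on 4 chromosomes, with values from 42.0 to 5711 and a median of 343. The unit was 26 bp in 10 of its regions, and the range was 20 to 52 bp. The further 26 bp group held 14 regions with a median of 138 and a maximum of 1095. The 172 bp group held 3 regions at 177, 1256 and 1591, and the 45 bp group on chromosome IV around Y57G11C.8 held 3 at 426, 540 and 1145. The 79 bp group held 6 regions of 1 array on chromosome II, from 133 to 668, all removed in all 4 lists. Of the 1804 kept peaks, 27 shared at least that much sequence with a removed region, 6 of them with the largest group.

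**Figure D4:**
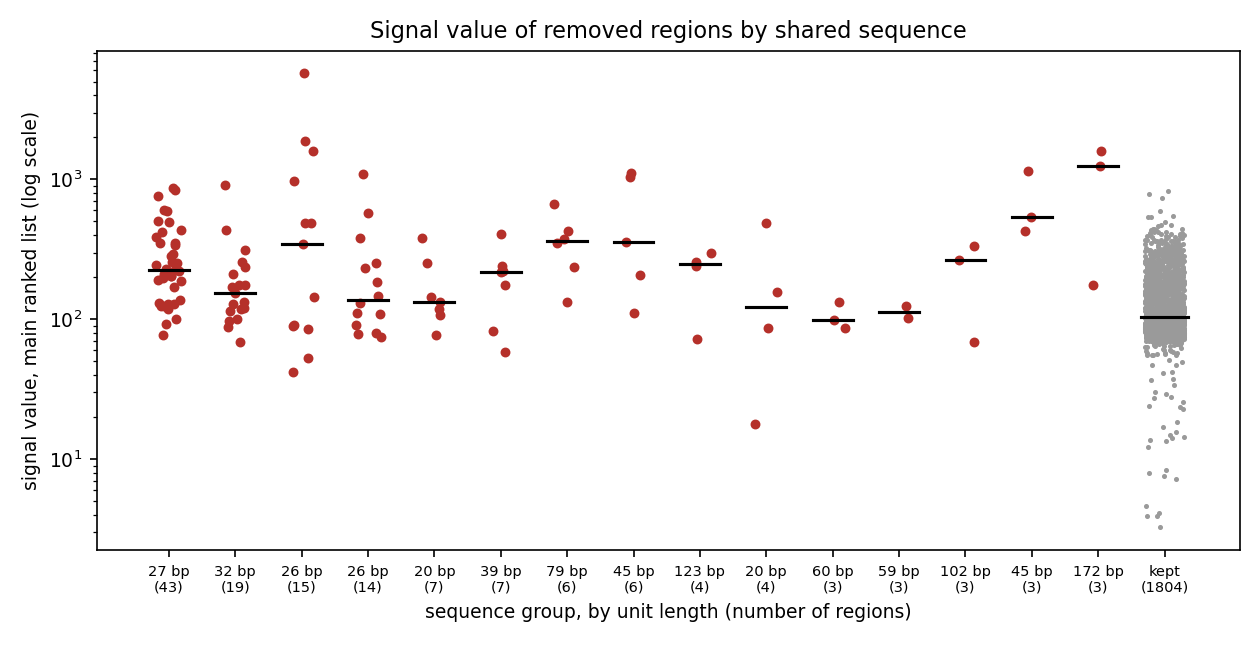
Signal value in the main ranked list (log scale) of the removed regions in each sequence group of 3 or more regions, named by its unit length with the number of regions, and of all kept peaks of the main list in grey. Black bars are medians. Some values are of candidates below the score, at regions removed only in other lists. The 172 bp group has the highest median, 1256, and the strongest region, at 5711, belongs to the 26 bp group of 15.

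Removed regions lay close to each other and away from kept peaks. The nearest other removed region was a median of 450 bp away, and the nearest kept peak of the main list 25350 bp, from 845 to 229208 bp. Between kept peaks the median distance was 8069 bp. Another removed region lay within 1000 bp of 64.7% of the 184, and another kept peak within that distance of 417 kept peaks (23.1%). Joined across gaps of up to 10 kb, the regions formed 71 blocks, of which 25 held 1 region, 18 held 2 and 28 held 3 or more. The 46 blocks of more than 1 region had a median span of 2385 bp and a longest of 10425 bp. They held 0 kept peaks of any list and 110 candidates below the score.

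The largest block, of 11 regions on chromosome I, spanned chrI:10946033-10953064 in an array of 32 bp units 7142 bp long, and 10 of its regions were removed in all 4 lists. Its strongest region, chrI:10947442-10947677, had a main signal value of 912, with 345 in replicate 1 and 521 in replicate 2. The block of 9, chrI:4537085-4547509, was weaker, from 69.0 to 251, and 3 of its regions were in all 4 lists. The region at 69.0 was removed in the conservative list alone and was below the score in the main list. The strongest of this block, chrI:4545565-4545828, had 118.9 and 156 in the replicates. Replicate 2 was higher in both, by more in the region of the larger block.

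The blocks of 7 regions lay on chromosomes III, IV and V. On chromosome III the strongest, chrIII:7447853-7448116, had 436 in the main list, with 220 and 197 in the replicates, and lay 6089 bp before alh-12, an aldehyde dehydrogenase gene. On chromosome IV, chrIV:8579549-8579784, described above for its replicate ratio, had 383 in the main list and lay 6333 bp before catp-7, a cation transporter of the P-type ATPases. The block on chromosome V held the region of 1595. The regions of 436 and 383 were past the score in all 4 lists.

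Of the 2 blocks of 6, that on chromosome II peaked at chrII:8292446-8292586, with 668 in the main list and 388 and 433 in the replicates, 2851 bp downstream of the start of the neuropeptide-like gene nlp-55. That on chromosome IV peaked at the 9 bp repeat chrIV:11070916-11071200, with 833 in the main list and 392 and 452 in the replicates, 4040 bp before ttr-17, a transthyretin-related gene. The block of 5 peaked at chrIII:5355236-5355499, with 251, 134 and 141, 5967 bp before thoc-5, of the THO complex in mRNA export. In these 3 regions replicate 2 was the higher.

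The remaining blocks held 3 or 4 regions. In the blocks of 4 not yet described, chrX:7077608-7077888 had 486 in the main list, with 281 and 313 in the replicates, near B0403.6. The region chrV:17309248-17309491 had 296, with 131 and 174, near Y61B8B.3. The region chrX:1637249-1637329 had 143, with 51.7 and 90.9, near ZK380.2, and no region of its block was in all 4 lists. The strongest regions of the 15 blocks of 3 ranged in main signal from 91.2 to 1035, the latter at chrIV:10945764-10945980 named above. Taken in genome order, of these chrII:3796729-3796984, in the coding sequence of Y8A9A.2, had 134, with 74.3 and 103. The region chrII:13984898-13985161 had 91.2, with 74.5 and 37.9, and lay 379 bp before the chemoreceptor gene sre-47, inside the promoter window used here. Replicate 1 was higher at this region, and replicate 2 at the other 4 with replicate values here.

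**Figure D5:**
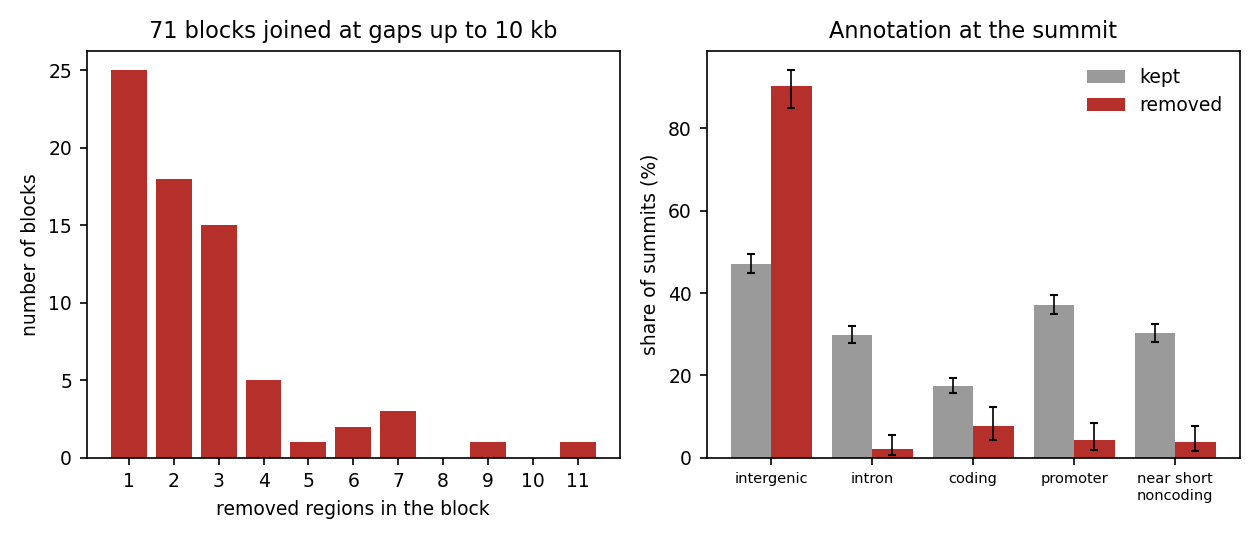
Left, the number of blocks by the number of removed regions they hold, with gaps of up to 10 kb joined. Right, the share (percent) of summits in each annotation class for 1804 kept peaks and 184 removed regions, with exact 95% binomial intervals. Of the removed summits, 90.2% are intergenic, against 47.1% of the kept ones.

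Removed summits were mostly intergenic and away from promoters and small RNA genes. Of the 184, 166 were intergenic (90.2%), against 850 kept summits (47.1%), 4 were in introns (2.17%), against 540 (29.9%), and 14 were in coding sequence (7.61%), against 316 (17.5%). No removed summit lay in an annotated untranslated region (0 of 184, exact upper limit 1.98%). Promoters, from 1000 bp before to 200 bp after the start of a protein-coding transcript, held 8 removed summits (4.35%, 1.90 to 8.39) and 671 kept ones (37.2%). The removed share was 0.800% at a score of 3 or more, 1.52% in the list of replicate 1 alone and 2.29% in that of replicate 2 alone. It was 2.17% in a promoter window of 500 bp before to 100 bp after the start. Starts of tRNA, snRNA, snoRNA, miRNA or rRNA genes lay within 500 bp of 7 removed summits (3.80%, 1.54 to 7.68) and 546 kept ones (30.3%). Within 200 bp the shares were 0.543% and 28.9%. Of those 7, 1 was near a tRNA gene, where 416 kept summits were. No annotated gene overlapped 159 of the removed regions (86.4%), against 390 kept peaks (21.6%).

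Histone genes, cytosolic ribosomal protein genes, heat shock genes, major sperm protein genes, collagens and the LIM homeobox genes with ldb-1 each had 0 of the 184 regions in a promoter or body. The kept peaks had 12 (0.665%), 58 (3.22%), 14 (0.776%), 0, 18 (0.998%) and 1 (0.0554%) in the same lists. The exact upper limit for 0 of 184, 1.98%, lies above the kept share in each list but that of the ribosomal protein genes. The nearest removed region lay 563466 bp from lim-7, 2038670 bp from unc-119 and 662685 bp from ldb-1, which encodes the LIM domain-binding cofactor, so the transgene's own genes held no member. Of the 8 promoter summits, that of Y80D4G.2 was the strongest, at 382 in the main list and in all 4 lists. The others were at zig-9, age-1 (a phosphatidylinositol 3-kinase of insulin signalling), sre-47, clec-80, nsph-3.1, Y57G11C.8 and F36D4.5, from 85.4 to 111, and none of these was in all 4 lists.

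Coding sequence held 14 removed summits, nearly all in repeats. They were in ttn-1, the giant titin-like protein of muscle, with 3 regions, Y8A9A.2 with 3, ZC247.1 and H03A11.2 with 2 each, and Y95D11A.5, cla-1, nsph-3.1 and ZC178.2 with 1 each. The protein of cla-1 is an active zone scaffold of synapses. In 13 of the 14 the tandem share was 50% or more, and in 12 of these 13 the unit length was a multiple of 3. Among the 151 intergenic regions in repeats it was a multiple of 3 in 54 (35.8%). Main signal values of the 14 were low, from 86.9 to 314 with a median of 102. The lowest, in Y8A9A.2, was past the score in the conservative list alone. Of the 14, 6 were in all 4 lists. Only a median of 3.43% of their bases was soft-masked. The 3 regions of ttn-1 had 87.0, 89.6 and 99.3 in the main list, with 56.3, 42.2 and 50.4 in replicate 1 and 57.7, 43.8 and 46.4 in replicate 2, so they differed little from each other or between replicates.

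The 19 regions with a tandem share below 50% were not a single kind, and 9 of them were below 10%. The strongest was chrIV:13549359-13549622, just under the limit at 49.2%, with a main signal of 758 and 388 and 467 in the replicates. Another 3 lay in the 5S ribosomal RNA array of chromosome V. In 2 of them the most common distance between recurring words was 980 and 982 bp, close to the width of the window. Of these, chrV:17122135-17122300 had 501, with 236 and 249, and chrV:17129382-17129626 had 183, with 95.5 and 99.99. Both lay near copies of the 5S rRNA gene rrn-4.2 and of sls-1.10, one of the genes for the SL1 leader RNA of trans-splicing. Their replicate values were close, and both were in all 4 lists. The third, chrV:17127889-17128152, had 42.9 and 44.4 in the replicates, was removed in 1 list and was no longer past the score in the main list. These 3 and the region on chromosome IV were chosen after their values were seen.

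Of the short motifs counted in the 100 bp around a summit, all but TAAT were found in a smaller share of removed than of kept windows. Motifs were searched on both strands. They were taken from an earlier motif list of this series, so the shares are descriptions and not an independent comparison. The windows had a median G and C content of 41% in removed regions and 51% in kept peaks. The motif shares were not adjusted for it. TAAT, the homeodomain core, was in 68 of 184 removed windows (37.0%) and in 32.4% of 1804 kept ones. GAGAGA was in 4.89% and 12.1%, CGCGCG in 0 of 184 and 3.44%, TGATAA in 2.72% and 5.49%, ACCACT in 5.43% and 17.6%, and GTTCGA, found in the tRNA gene's internal promoter, in 2.72% and 18.3%. CGGCCA was in 13 removed windows (7.07%) and 11.5% of kept ones, and 10 of the 13 belonged to the 26 bp group of the strongest region, whose sequences are shown above. Of the kept peaks with CGGCCA, 0 lay in tandem repeats and 4 shared sequence with a removed region. A window with no match says only that these letters are not in it.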

How the data were processed

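ChIP-seq peak lists of 2 biological replicates of 1 group were used. The authors deposited, for each replicate and for both together, ranked lists and thresholded lists in ce11 coordinates, per the file headers and labels. The deposited signal value has no stated scale. The global IDR is on a −log10 scale in the deposited ranked lists. The deposited q-value column was not used. Neither aligner nor peak caller is named in the sources used here, and 16 columns of single inputs in the ranked lists of both replicates were not used. Read depth is unknown.

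A member had a −log10 global IDR of 2 or more and no row with the same chromosome, start, end and summit in the thresholded list. Members and lists were chosen with earlier results of these data known. Exact recurrences of 12-base words within 1000 bp, 50-base words repeated in the genome, and soft-masked bases were counted in RefSeq WBcel235. The counts were made after a check on simulated sequence, with Python 3.11.15, numpy 2.4.6, pandas 2.3.3 and scipy 1.17.1. Genes came from Ensembl's WBcel235 annotation. An array was the run of positions around a summit where 50% or more of the 12-base words in 100 bp recurred within 600 bp.

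The text names the 10 regions of highest main signal, the strongest region of each of 15 blocks of 3 or more regions (ties in genome order), any region at lim-7, unc-119 or ldb-1, and up to 4 members of each gene list. Intervals are exact 95% binomial intervals. No test was made, since 1 group has no contrast and regions are not replicates. Alternatives were score, matching, merging, block gap, word length, gene distances, single replicates and G and C window.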

Additional observations from a re-analysis of the deposited data

How the results depend on the processing

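The 9 results were recomputed 69 times in all, by result and setting. Of these values, 55 stayed within 1.5 times (counts), the main interval (shares) or the SD between replicate lists (medians), and 14 did not. Settings on rows and merging, applied to results beyond those they were planned for, and the result on tandem repeats were chosen after seeing the data. The share of repeated words, 73.1% in the main setting, was 84.3% with words of 36 bases, 10.3% with words of 100, 76.7% at a score of 3 or more, 75.9% with gaps of 500 bp merged and 74.9% in the lists of both replicates alone. The share near short noncoding genes was 0.543% within 200 bp. At a score of 3 or more, promoters held 0.800% and tandem repeats 94.4%. The lists of both replicates alone held 318 removed rows. The list of each single replicate was also taken alone, which left out the lists made from both replicates too. This gave 132 rows in each case, 131 to 132 regions, 60 to 61 blocks and 73.5% to 74.9% repeated words. It also gave 3.03% to 3.82% near short noncoding genes, 1.52% to 2.29% in promoters, 41% to 42% G and C, and 92.4% to 93.2% in tandem repeats. The cause of these moves was not tested, except that fewer lists hold fewer rows. No paired analysis was possible because the 2 replicates form 1 group. Depth, unknown here, limits which weak regions pass the score. Short windows cannot show units near their own length, and the intervals ignore that regions of 1 array are related.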

Other observations

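Some kept peaks resembled the removed regions, and the strongest were looked up after their values were seen. The strongest kept peak in a tandem repeat, chrIV:1831303-1831505 in an intron of cmk-1, a calcium/calmodulin-dependent kinase gene, had a signal value of 472, the 9th highest of the kept peaks of the main list, in an 18 bp repeat of 646 bp. The next 2 that shared sequence with the largest group of removed regions, chrIII:2499417-2499529 and chrIII:2497957-2498035, lay in 1 array of 4960 bp with a 25 bp unit and had 291 and 264. A further kept peak, in the leader of pck-2, had 281 in a repeat with a 40 bp unit. Of the 58 kept peaks in tandem repeats, 42 were intergenic, 14 were in introns and 1 was in coding sequence, and 0 lay near a short noncoding gene.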
